A study of Mus musculus with 30 samples.

Results

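Cytochrome P450 enzymes are heme proteins that insert an oxygen atom into lipophilic molecules. Families 1 to 3 hold most of the enzymes that act on drugs, foreign chemicals and steroids in the liver, and family 4 hydroxylates fatty acids and eicosanoids. A smaller number of members have a fixed place in a pathway, such as Cyp7a1 in bile acid synthesis or Cyp11a1 in steroid hormone synthesis. Many of the liver enzymes are switched on around birth and during suckling, and their transcription is governed by nuclear receptors and liver-enriched factors such as HNF4α and C/EBP proteins.

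The genes described here were all those for which the array annotation gave a probe set a single symbol of the form Cyp, number, letter, apart from Cyp27b1 and Cyp24a1, the vitamin D hydroxylases. These were 60 genes of the 12393 named on the array, represented by 72 probe sets. Of these, 22 probe sets belonged to 10 genes that had several. A further 4 probe sets that carried several symbols were left unnamed, and 3 probe sets of the excluded genes were left out. Because P450 subfamilies hold near-identical genes, probe sets of the Cyp2b, Cyp2c, Cyp2d, Cyp3a and Cyp4a genes may bind related transcripts, and 11 of the 72 carry the array maker's suffix for shared or less specific probes.

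RNA came from neonatal mice that lack the orphan nuclear receptor ERRγ (labelled knockout, genotype ERRγ null) and from wild-type mice, both on a mixed SV129/C57BL/6 background, fed standard chow, untreated and of unknown sex. ERRγ, encoded by Esrrg, is a receptor without a known natural ligand that drives genes of mitochondrial energy metabolism. Liver, kidney, stomach, salivary tissue and brain of each genotype were measured on 3 Affymetrix MOE430A arrays, giving 30 arrays in 10 groups. The labels do not describe how the null allele was made. Nor do they say whether the 3 arrays of a group were separate animals, so p-values here reflect the spread between arrays, part of which may be technical.

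Values are log2 MAS5 signals, and differences are null minus wild-type on that scale, so a difference of 1 is a doubling. Array medians lay between 5.80 and 6.08. The probe set for Esrrg did not fall in any tissue: it stood at 6.49 ± 0.16 in wild-type liver and 6.47 ± 0.29 in null liver (SD, n = 3), and was higher in null stomach by 0.49 (limma adjusted p = 0.0312). Its position relative to the deletion is not known here, so this reading says nothing about the genotype labels. Xist, the transcript of the inactive X chromosome, was high on wild-type arrays 1 and 2 and null arrays 2 and 3 of every tissue and low on the others, so no group came from 1 animal alone. The labels do not say whether a number stands for the same animal in every tissue. Several features of the arrays bear on the results. The 3' minus 5' gap of the Gapdh control probe sets, which grows as RNA degrades, did not overlap between genotypes in liver (4.25 to 4.81 wild-type, 3.91 to 4.16 null) or in stomach (2.28 to 3.11 wild-type, 3.53 to 3.97 null). Albumin (Alb), made by hepatocytes, read 5.93, 10.25 and 11.90 on the wild-type stomach arrays. Null liver array 2 lay nearer to the wild-type arrays than the other null arrays did in 75.6% of the 941 probe sets that passed the test in liver.

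A member was taken as above background in a group where its mean reached the 40th percentile of all probe sets in that tissue, between 5.25 in liver and 5.39 in brain. The 27 bacterial control probe sets, which have no target in mouse RNA, read 5.18 at most on any array. In wild-type liver 54 of the 72 probe sets, from 49 genes, were above this level. The numbers were lower elsewhere, with 30 probe sets in stomach, 29 in kidney, 24 in salivary tissue and 23 in brain, beside about 60% of all probe sets in each tissue. With null arrays the numbers were 49 in liver, 36 in stomach, 30 in kidney, 28 in salivary tissue and 21 in brain.

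Of the 72 probe sets, 19 were above background in wild-type liver and in no other wild-type tissue, among them those of Cyp1a1, Cyp1a2, Cyp2a12, Cyp3a16, Cyp3a25, Cyp8b1 and Cyp4f15. Kidney had 1 such probe set (Cyp2j13), stomach 2 (Cyp2c55 and Cyp2c65), salivary tissue 1 (Cyp1b1) and brain none. In all 5 wild-type tissues 14 were above background, including those of Cyp2e1, Cyp3a11, Cyp2s1, Cyp46a1 and Cyp4b1 and another probe set of Cyp1b1. In no group of either genotype did 8 probe sets reach the level: Cyp11a1, Cyp2b13, Cyp2d12, Cyp2d34, Cyp4f14, Cyp4f18 and 1 probe set each of Cyp2d13 and Cyp4f16. Cyp11a1, the enzyme that starts steroid hormone synthesis and is abundant in adrenal cortex, read between 1.10 and 1.42 on all 6 kidney arrays.

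The tissue pattern without the knockout was tested on the 15 wild-type arrays, each tissue against the mean of the other 4. A probe set was called where limma's adjusted p was under 0.05 and all 3 arrays lay above the other 12. Of 60 members tested, 34 were called in liver, where 11.1% of all probe sets were called. Kidney had 4 members called (6.13% of all), stomach 3 (5.76%), salivary tissue 2 (7.59%) and brain 1 (18.7%).

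Most of these transcripts were under background on some array of the other tissues, so differences are given as lower bounds, with each such array set at the background level of its tissue. Of the 34 liver-rich members, 28 have such a bound and 4 were measured on every array: Cyp2e1, higher in liver by 5.65 ± 0.44 (difference ± SE), Cyp2c70 by 4.62 ± 0.15, Cyp2c29 by 1.07 ± 0.17 and a probe set of Cyp2d22 by 0.90 ± 0.13. Cyp17a1 and Cyp4a31 have no bound, since their wild-type liver means of 5.11 and 5.34 are under or near that level. For 12 of the 34, every array of the other tissues was under background. They include Cyp3a16, a mouse Cyp3a form of the perinatal liver, with 9.17 ± 0.36 in wild-type liver (SD, n = 3) and at least 3.80 above the others, Cyp2a12 (at least 4.18), Cyp3a44 (at least 3.66) and Cyp2c50 (at least 3.53). Cyp4a14, a fatty acid hydroxylase, was higher in liver by at least 5.91, Cyp3a11 by at least 5.68, Cyp3a25 by at least 5.60, Cyp2d10 by at least 5.28, Cyp2d26 by at least 5.05 and Cyp2d9 by at least 4.62. The kidney members were 2 probe sets of Cyp2j5, an arachidonic acid epoxygenase, higher by at least 3.12 and 1.15, Cyp2j13 by at least 0.96, and Cyp7b1, which hydroxylates oxysterols, by at least 1.10. Cyp2j5 was also above background in wild-type liver.

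Stomach was set apart by Cyp2c65, a P450 of the gut epithelium, which read 10.16, 9.91 and 10.22 there and at most 4.95 on any other wild-type array. Cyp2s1, known from epithelia of the airways and gut, was higher in stomach by 3.46 ± 0.13, a difference measured on every array, and Cyp2c55 by at least 1.54. Cyp2f2, which activates naphthalene in airway cells, was highest in salivary tissue at 11.42 ± 0.17 (SD, n = 3). It was also abundant in stomach (10.09 ± 0.16) and liver (10.44 ± 0.55) and under background in kidney and brain. A probe set of Cyp1b1 was higher in salivary tissue by at least 0.40, while the other 2 probe sets of that gene were not called there. Brain was marked by Cyp46a1, the cholesterol hydroxylase of neurons, at 7.85, 7.89 and 7.95 against 6.20 at most elsewhere.

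**Figure D1:**
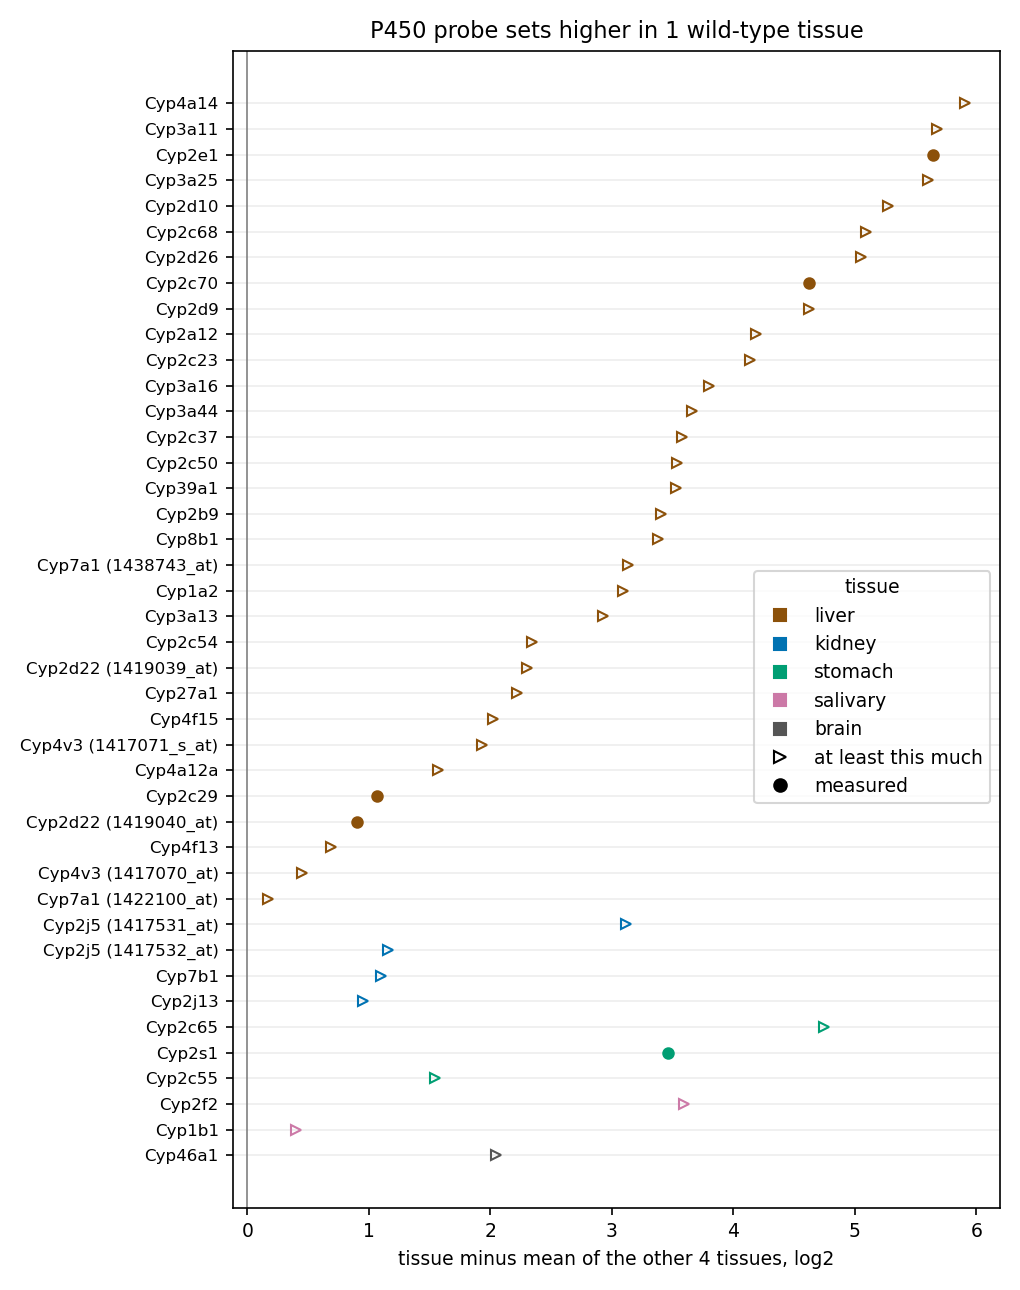
Difference between the named wild-type tissue and the mean of the other 4 tissues (x axis, log2) for 42 of the 44 P450 probe sets called in a tissue. Open triangles are lower bounds, with arrays under background set at the background level, and the 5 filled circles were measured on every array; liver holds 32 of the 42, and Cyp2c65 in stomach stands at 4.75 or more.

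In liver, null arrays had lower levels of a series of P450 transcripts of families 1 to 4, led by Cyp1a2, and higher levels of Cyp3a13 and Cyp4f15. Of 52 members that passed the filter on low values, 14 fell and 2 rose (limma, Benjamini-Hochberg adjusted p under 0.05). Over all 13577 probe sets tested in liver, 3.46% fell and 3.47% rose. The arrays of the genotypes did not overlap for 17 members that were lower and 11 that were higher in null liver, beside 27.9% of all probe sets in either direction. The median difference of the 52 members was -0.10 and that of all probe sets 0.03. Of the 52, 4 had a null mean under background, among them Cyp1a2 and Cyp4a12a, and so passed the filter only through their wild-type arrays. For 1 other the wild-type mean was under background.

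Cyp1a2, which metabolises caffeine and aromatic amines, had the largest difference. It read 8.26, 8.57 and 8.57 on the wild-type arrays and 2.73, 5.58 and 3.19 on the null arrays. The genotypes lay far apart, and 2 of the 3 null arrays were under background. The fitted difference was -4.63 ± 0.60 (SE, limma adjusted p = 0.00435), and -3.27 with values under 5 set to 5. With the 2 dim null arrays set at the background level Cyp1a2 was at least 8.63-fold lower, and it was called in every fit that left out 1 array.

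Cyp4a12a, a fatty acid ω-hydroxylase that makes a vasoactive eicosanoid, read 6.83, 6.68 and 7.32 in wild-type against 4.77, 3.36 and 3.43 in null liver. All 3 null arrays were under background, so the fall is given as a bound: at least 3.24-fold lower (means 6.94 and 3.85, limma adjusted p = 0.00404). The transcript was above background in wild-type liver alone of the 5 tissues and was under it in every null group.

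The Cyp2c subfamily, which epoxidises arachidonic and linoleic acids and hydroxylates drugs, supplied 5 of the 14 falls. Its members Cyp2c37 (difference -1.38), Cyp2c38 (-0.49) and Cyp2c29 (-0.15) did not pass. Cyp2c50 read 9.0, 9.25 and 8.47 in wild-type against 6.44, 5.78 and 7.47 in null liver, a difference of -2.34 ± 0.38 (limma adjusted p = 0.00978). Cyp2c54 read 8.24, 8.13 and 7.84 against 5.42, 6.48 and 6.50, a difference of -1.94 ± 0.28 (limma adjusted p = 0.00634). In both, every null array lay at least 1 unit under the lowest wild-type array. Cyp2c70, which makes the muricholic acids typical of mouse bile, read 10.77, 10.58 and 10.43 against 8.34, 9.90 and 9.17 (difference -1.46, limma adjusted p = 0.0290). Cyp2c23 differed by -1.33 (adjusted p = 0.0358) and Cyp2c68 by -1.07 (adjusted p = 0.0486), both in limma. Cyp2c68 was called in only 5 of 16 alternative fits. For Cyp2c70, Cyp2c23 and Cyp2c68, null array 2 was the null array closest to wild-type.

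Other family 2 members that fell have varied substrates. Cyp2f2 read 11.07, 10.10 and 10.14 in wild-type against 6.79, 9.20 and 8.23 in null liver (difference -2.36 ± 0.51, limma adjusted p = 0.0274). Cyp2a12, a steroid hydroxylase, read 10.14, 9.47 and 9.06 against 6.92, 8.57 and 7.37 (difference -1.94 ± 0.40, limma adjusted p = 0.0235). Cyp2j5 read 8.22, 8.19 and 7.82 against 5.49, 7.10 and 6.17 on its brighter probe set (difference -1.82 ± 0.34, limma adjusted p = 0.0177). In all 3 genes the groups did not overlap and null array 2 stood highest of the null arrays. The second Cyp2j5 probe set differed by -0.50 and did not pass (limma adjusted p = 0.362). Cyp2b9, a member of the phenobarbital-responsive Cyp2b group, read 9.13, 8.71 and 8.73 against 7.01, 7.69 and 7.72 (difference -1.38 ± 0.22, limma adjusted p = 0.00937). Cyp2d26 differed by -0.74 ± 0.14 (limma adjusted p = 0.0193).

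The Cyp3a genes, drug and steroid hydroxylases of which many lie in a cluster, went different ways. Cyp3a16 read 8.77, 9.27 and 9.48 in wild-type against 8.37, 8.48 and 7.65 in null liver (difference -1.01 ± 0.25, limma adjusted p = 0.0451). Cyp3a16 was called in only 5 of 16 alternative fits, and not in the fit of all 30 arrays (limma adjusted p = 0.733). Cyp3a13 read 9.21, 8.84 and 8.40 in wild-type against 10.17, 10.20 and 10.16 in null liver, a rise of 1.36 ± 0.19 (limma adjusted p = 0.00623). The null arrays for Cyp3a13 lay within 0.04 of each other and above all wild-type arrays. Cyp3a11 (difference 0.22), Cyp3a25 (0.44) and Cyp3a44 (-0.42) did not pass. Of the other liver-rich members, Cyp2e1 (-0.16), Cyp4a14 (0.22), Cyp2d10 (-0.21) and Cyp2d9 (0.06) did not pass either.

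In family 4, the fatty acid hydroxylases, 9 probe sets of 12 were tested, of which 2 fell and 1 rose. Besides Cyp4a12a, Cyp4v3 fell by 0.64 (limma adjusted p = 0.0463), with 8.36, 7.98 and 8.11 in wild-type against 7.51, 7.40 and 7.63 in null liver. Cyp4v3 was called in only 5 of 16 alternative fits. Its second probe set differed by -0.86 and did not pass (limma adjusted p = 0.0528). Cyp4f15 rose by 1.03 ± 0.21 (limma adjusted p = 0.0240), from 7.49, 7.39 and 7.30 to 8.44, 7.99 and 8.85.

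**Figure D2:**
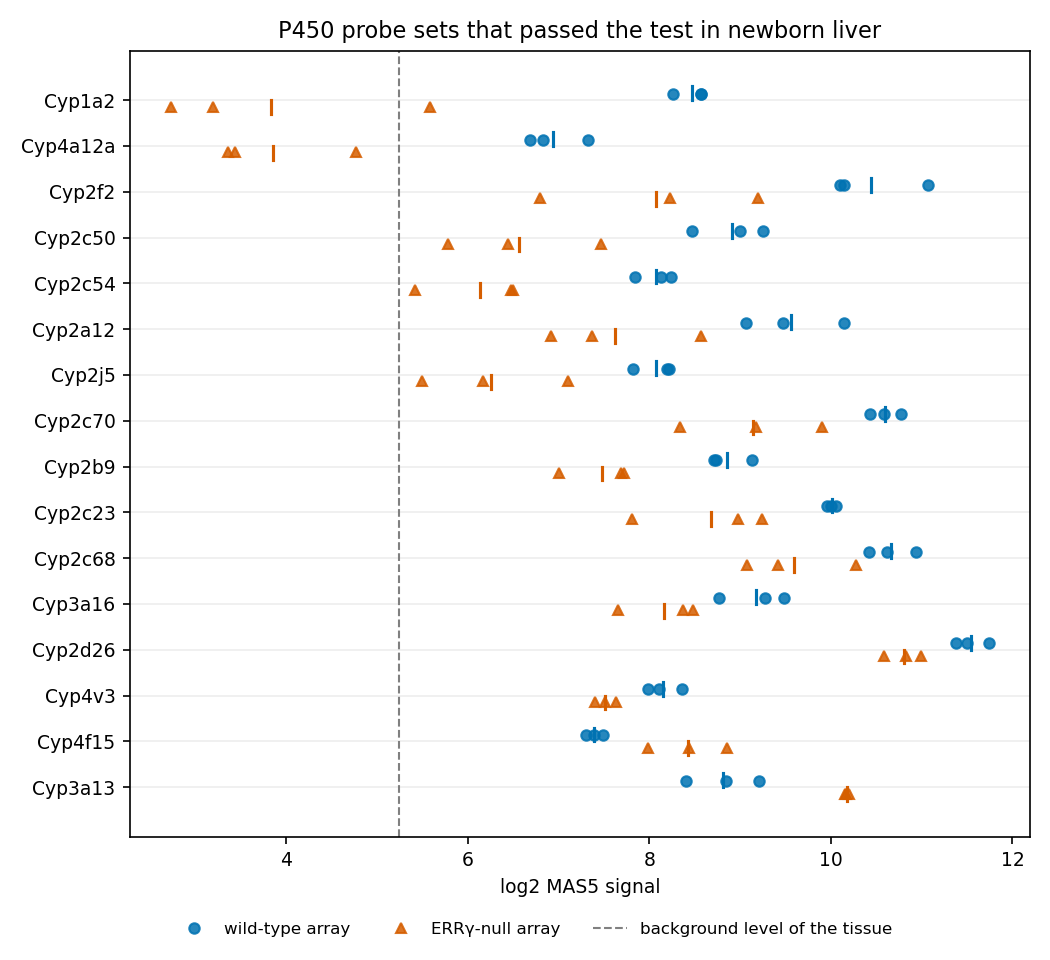
Log2 MAS5 signal (x axis) of the 16 P450 probe sets that passed in liver, with a circle for each wild-type array, a triangle for each null array and bars at the group means; the dashed line is the background level. The null arrays of Cyp1a2 lie at 2.73, 5.58 and 3.19 against 8.26 to 8.57 in wild-type, and the groups do not overlap for any of the 16.

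None of the 6 probe sets tested for enzymes of bile acid and sterol metabolism passed in liver. An unadjusted limma p under 0.05 was found for 5 of these 6, all higher in null liver, beside 22.8% of all probe sets in either direction and 12.1% that were higher. The median difference over the 6 was 1.01, beside 0.03 over all probe sets. Cyp7a1, the rate-limiting enzyme of the classical bile acid pathway, read 8.31, 8.44 and 8.82 in wild-type against 10.56, 9.14 and 9.39 in null liver on its brighter probe set (difference 1.17 ± 0.32, limma adjusted p = 0.0616). The groups did not overlap, and its second probe set differed by 1.28 (limma adjusted p = 0.0723). That second probe set was near background in wild-type liver, with a mean of 5.54. Cyp27a1, the mitochondrial sterol side-chain hydroxylase, differed by 1.10 ± 0.29 (limma adjusted p = 0.0519). Cyp39a1, an oxysterol hydroxylase, differed by 0.91 (adjusted p = 0.0723) and Cyp8b1, which makes cholic acid, by 0.45 (adjusted p = 0.0981), both in limma.

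Steroid hormone enzymes were near background in liver. Cyp17a1, a hydroxylase and lyase of androgen synthesis, read 5.30, 5.23 and 4.79 in wild-type against 6.59, 5.64 and 6.45 in null liver (difference 1.12 ± 0.29, limma adjusted p = 0.0515), so that the groups did not overlap but the test was not passed. None of the 3 steroid hormone probe sets tested passed. Cyp26a1, which degrades retinoic acid, differed by 0.31 (limma adjusted p = 0.438).

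The liver counts rest on few arrays. Leaving out wild-type array 1, 2 or 3 gave 7, 5 or 6 members called, leaving out null array 1 or 3 gave 9 or 6, and leaving out null array 2 gave 23. With the Gapdh gap as a covariate no member was called, as was no probe set at all in liver: 19 of the 52 members and 1846 of all 13577 probe sets had an unadjusted p under 0.05, and the 16 members kept their sign. In that fit Cyp1a2 differed by -4.28 (limma adjusted p = 0.195) and Cyp3a16 by -0.31 (limma adjusted p = 0.689). The part of the Gapdh gap in these differences was not tested. Of 14 hepatocyte markers on the array, including Alb, none passed in liver, and their mean lay between 12.51 and 12.59 on wild-type and 12.33 and 12.62 on null arrays. Of 5 erythroid markers 4 were tested and 1 rose, Alas2, the heme synthesis enzyme of red cell precursors, by 0.51 (limma adjusted p = 0.0452), and their mean lay between 7.71 and 8.05 on wild-type and 7.86 and 8.09 on null arrays. In whole tissue, fewer cells of a type and less RNA per cell cannot be told apart.

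Genes that work with the P450 enzymes were counted from 3 lists of electron donors, heme enzymes and transcription regulators, of which 33 genes were on the array. In liver 32 of them were tested, and 7 rose and 1 fell, beside 3.47% and 3.46% of all probe sets. All 7 that rose were regulators. Ppargc1a, a coactivator of nuclear receptors that is induced by fasting in liver, read 7.21, 7.45 and 6.82 in wild-type against 10.19, 9.26 and 10.25 in null liver, a rise of 2.74 ± 0.27 (limma adjusted p = 0.00193). Cebpb rose by 1.99 and Cebpd by 1.82, both C/EBP factors. The nuclear receptors Nr5a2 (1.09), Esrra (1.01, the ERRα relative of the deleted receptor), Hnf4a (0.72) and Ppara (0.71) rose as well. Cyb5b, the outer mitochondrial membrane cytochrome b5, fell by 0.85 (limma adjusted p = 0.0182). The xenobiotic receptors Nr1i2 and Nr1i3 did not pass, nor did any of the 8 heme enzymes of the list, which does not hold Alas2. Of these 33 genes over all 5 tissues, 22 results passed without and 3 with the Gapdh gap as a covariate.

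The 250 bases upstream of the start were available for 44 of the 60 genes, from RefSeq on build GRCm38.p6. They were searched on both strands for 7 short motifs. CAAAGTCCA, a form of the site bound by HNF4α, was present in 6 of the 44 (13.6%) and in 0.451% of 27025 genes. The 6 include liver members that fell (Cyp3a16, Cyp2c68 and Cyp2c70), liver members that did not pass (Cyp3a11 and Cyp8b1) and the stomach member Cyp2c65. TNAAGGTCA, an extended half-site of the kind bound by estrogen-related receptors, was present in 2 of the 44 (Cyp2f2 and Cyp2c29) and in 1.30% of genes; its stricter form TCAAGGTCA was in none, beside 0.422% of genes. TTGCNNAA, bound by C/EBP proteins, was in 9 (20.5%, beside 10.8% of genes), and GCGTG, the core bound by the aryl hydrocarbon receptor, in 10 (22.7%, beside 30.9%). A direct repeat bound by nuclear receptors and an HNF1-type site were in none of the 44. A match describes these letters only and not a binding site, and related P450 genes share promoter sequence. The stretches of 100 bases that hold the CAAAGTCCA and TNAAGGTCA matches are shown because they let the related promoters be compared, 5′ to 3′ on the strand of the gene, with the motif in capitals.
Cyp3a16: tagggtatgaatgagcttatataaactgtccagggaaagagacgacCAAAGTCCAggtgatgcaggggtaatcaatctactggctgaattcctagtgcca
Cyp3a11: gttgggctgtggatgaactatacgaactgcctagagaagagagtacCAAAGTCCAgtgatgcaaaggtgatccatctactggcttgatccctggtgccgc
Cyp2c68: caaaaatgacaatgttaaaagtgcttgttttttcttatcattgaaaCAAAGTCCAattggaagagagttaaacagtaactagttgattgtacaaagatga
Cyp2c70: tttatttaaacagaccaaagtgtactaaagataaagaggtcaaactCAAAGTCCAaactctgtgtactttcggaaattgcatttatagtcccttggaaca
Cyp2c65: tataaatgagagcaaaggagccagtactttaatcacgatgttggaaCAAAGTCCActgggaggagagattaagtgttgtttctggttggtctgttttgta
Cyp8b1: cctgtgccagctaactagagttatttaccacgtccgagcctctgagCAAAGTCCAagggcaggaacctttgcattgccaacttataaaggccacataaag
Cyp2f2: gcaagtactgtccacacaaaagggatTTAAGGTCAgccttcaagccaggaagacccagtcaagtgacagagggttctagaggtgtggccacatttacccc
Cyp2c29: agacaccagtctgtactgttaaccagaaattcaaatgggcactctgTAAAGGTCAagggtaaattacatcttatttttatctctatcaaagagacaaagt

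On GRCm38.p6 these stretches lie at chr5:145469769-145469868 (Cyp3a16, minus strand), chr5:145879910-145880009 (Cyp3a11, minus), chr19:39741125-39741224 (Cyp2c68, minus) and chr19:40187297-40187396 (Cyp2c70, minus). The others lie at chr19:39060844-39060943 (Cyp2c65, plus strand), chr9:121916319-121916418 (Cyp8b1, minus), chr7:27119705-27119804 (Cyp2f2, plus) and chr19:39286882-39286981 (Cyp2c29, plus). All are upstream of the annotated start of transcription. The paired Cyp3a16 and Cyp3a11 promoters share the motif at nearly the same distance, 99 and 109 bases upstream, while in liver Cyp3a16 fell and Cyp3a11 differed by 0.22 without passing.

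In kidney a single member passed. Cyp2e1, which oxidises ethanol and acetone, read 6.87, 6.94 and 6.21 in wild-type against 7.79, 7.72 and 7.74 in null kidney. All null arrays were higher, and the rise was 1.08 ± 0.19 (limma adjusted p = 0.0360). This was 1 of 28 members tested, beside 0.781% of all probe sets in kidney, where 0.412% rose and 0.368% fell. The arrays of the genotypes did not overlap for 12 members that were higher and 2 that were lower in null kidney, beside 20% of all probe sets.

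Several other kidney members came near the threshold. Cyp2j13, above background in kidney alone among wild-type tissues, read 6.61, 6.33 and 5.94 in wild-type against 7.16, 7.04 and 7.25 in null kidney (difference 0.86 ± 0.18, limma adjusted p = 0.0613). Cyp2d22 differed by 0.75 and 0.68 on its 2 probe sets (limma adjusted p = 0.0790 and 0.143) and Cyp2c29 by 0.87 (limma adjusted p = 0.0937). Cyp2j5, the kidney-rich epoxygenase, read 9.14, 9.11 and 9.24 in wild-type against 8.42, 8.87 and 8.22 in null kidney (difference -0.66 ± 0.16, limma adjusted p = 0.0869). Its second probe set differed by -0.12 (limma adjusted p = 0.745). The brighter Cyp2j5 probe set was the only kidney member with a lower level in null arrays and an unadjusted p under 0.05, beside 11 members that were higher, where 7.32% of all probe sets were higher at that p. The median difference of the 28 members was 0.30 and that of all probe sets 0.01. Cyp3a11 read 8.58 on null kidney array 1 and between 6.11 and 6.86 on the other 5 arrays.

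Leaving out any kidney array except null array 2 ended the call of Cyp2e1, with 0 members called, and leaving out null array 2 gave 2. Of 14 hepatocyte markers 8 were tested in kidney and 1 passed, Fga, a fibrinogen chain, which rose by 1.28 (limma adjusted p = 0.0292). The others went both ways: Alb read 6.47, 7.38 and 6.92 in wild-type against 6.98, 8.73 and 7.50 in null kidney, while Afp, the fetal albumin relative, read 9.03, 9.03 and 8.74 against 8.07, 8.57 and 7.99 and did not pass. The mean of the 14 per array ran from 5.20 to 6.01 in wild-type against 5.52 to 6.74 in null kidney. Of 7 adrenal cortex markers on the array 3 were tested in kidney and none passed, and Cyp11a1 was far under background. The part of liver-type transcripts in the kidney differences was not tested. With the mean of the 3 tested adrenal markers as a covariate no kidney member was called, although Cyp2e1 then differed by 1.35 (limma adjusted p = 0.133). Star, 1 of these 3, read 6.28 in wild-type kidney and 6.79 in wild-type brain, so this covariate may not follow adrenal tissue.

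In stomach 10 of 30 members tested passed, with 9 higher and 1 lower in null arrays. Over all probe sets of this tissue 11.2% rose and 12.2% fell. The genotypes did not overlap for 12 members that were higher and 2 that were lower, beside 42.8% of all probe sets. The 9 rises came from 7 genes. The median difference of the 30 members was 0.38 and that of all probe sets 0.03.

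Cyp2b10, the classical target of the xenobiotic receptor CAR, rose on all 3 of its probe sets. The brightest read 7.04, 6.90 and 6.83 in wild-type against 8.74, 7.84 and 8.55 in null stomach, a rise of 1.45 ± 0.22 (limma adjusted p = 0.00392). The probe set that was under background on all wild-type arrays (mean 5.23 against 6.65) was at least 2.46-fold higher (limma adjusted p = 0.00338), and the other probe set rose by 0.95 (limma adjusted p = 0.00685). The former passed the filter only through its null arrays. In liver 2 of these 3 probe sets were tested and neither passed. The third, the one under background in wild-type stomach, differed by 2.13 in liver. Its mean there was above background in null arrays alone, and it lay under the filter, so this difference was not tested. In liver the brightest probe set read 6.93, 6.22 and 6.10 in wild-type against 7.67, 5.30 and 7.64 in null arrays, with null array 2 under all wild-type arrays and the others over them.

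Cyp2f2 read 10.06, 10.26 and 9.95 in wild-type against 11.26, 10.66 and 11.18 in null stomach, a rise of 0.94 ± 0.16 (limma adjusted p = 0.00624), while it fell in liver. Cyp3a13 rose in stomach (0.81, limma adjusted p = 0.0221) as it did in liver. Further rises were those of Cyp27a1 (0.75), Cyp2d22 (0.72), Cyp4b1 (0.56) and Cyp4v3 (0.55), with limma adjusted p between 0.0182 and 0.0388. Cyp4b1 acts on fatty acids and fatty alcohols. The member that fell was Cyp2c65, the transcript that marks stomach among these tissues, from 10.16, 9.91 and 10.22 to 9.42, 9.87 and 9.01 (difference -0.66 ± 0.20, limma adjusted p = 0.0413). Null array 2 read just 0.04 under the lowest wild-type array. Single markers of other cell types fell in the same tissue. Of 6 enterocyte markers 4 were tested and 1 fell, Lct, the intestinal lactase, by 1.52 (limma adjusted p = 0.0483), and their mean per array ran from 4.92 to 5.56 in wild-type against 3.62 to 6.77 in null stomach. Of 7 pancreatic acinar markers 2 were tested and 1 fell, Clps, the cofactor of pancreatic lipase, by 1.84 (limma adjusted p = 0.000274), with means from 4.62 to 5.28 against 4.80 to 5.29. Their part in the stomach differences was not tested. Cyp2s1 (0.24) and Cyp2c55 (0.44), the other stomach-rich members, did not pass.

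**Figure D3:**
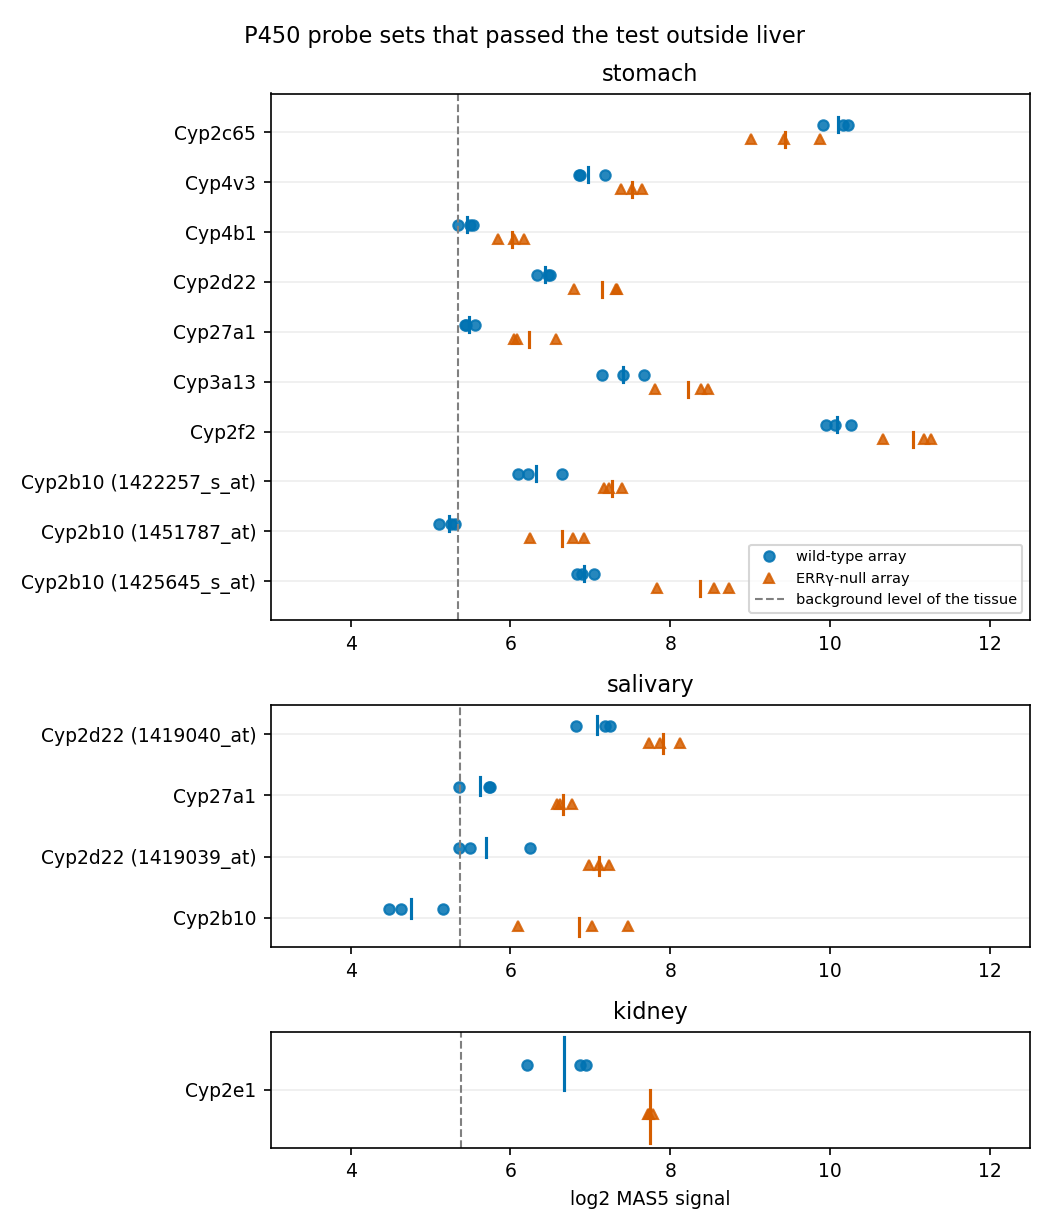
Log2 MAS5 signal (x axis) of the P450 probe sets that passed in stomach, salivary tissue and kidney, with a circle for each wild-type array, a triangle for each null array and bars at the group means; dashed lines are the background levels. Wild-type and null arrays do not overlap for any of the probe sets drawn, and Cyp2c65 is the only one that is lower in null arrays.

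Liver-rich P450 transcripts varied strongly between the 3 wild-type stomach arrays, in the order of albumin. Cyp3a11 read 4.95, 6.68 and 9.62 on wild-type arrays 1, 2 and 3 and between 5.48 and 6.15 on the null arrays. Cyp2e1 read 5.62, 7.05 and 9.13, Cyp4a14 3.85, 5.56 and 8.06, and Cyp3a25 -0.59, 3.84 and 6.56 on the same arrays. Alb read 5.93, 10.25 and 11.90. Of the 34 liver-rich probe sets, 18 were in the order of Alb on these arrays, and 13 were higher by over 2 on array 3 than on array 1. Among these 13, Cyp3a16, Cyp2c50, Cyp1a2, Cyp3a44, Cyp4a31 and a probe set of Cyp7a1 were under background on all 3 wild-type arrays, so their differences are not measured levels. None of the members called in stomach varied in the order of Alb to that extent: Cyp2f2 ranged from 9.95 to 10.26 and Cyp3a13 from 7.15 to 7.67 over the wild-type arrays. Of 14 hepatocyte markers 11 were tested in stomach and 2 fell, Afp and Ambp, and their mean per array ran from 4.96 to 9.89 in wild-type against 4.85 to 5.95 in null stomach.

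With Alb as a covariate 3 of the 10 members were called, Cyp2f2 and 2 probe sets of Cyp2b10 (limma adjusted p between 0.0338 and 0.0485). The other 7 kept their direction at adjusted p between 0.0651 and 0.144, for example Cyp27a1 with 0.79, Cyp2d22 with 0.73 and Cyp2c65 with -0.72. When the pair of wild-type arrays with high Alb was left out none was called, with the lone wild-type array assumed to vary like the null arrays; Cyp2f2 then differed by 0.97 (limma adjusted p = 0.133) and Cyp2c65 by -0.73 (adjusted p = 0.261). With the Gapdh gap as a covariate none of the 10 was called, and 2 of all 13576 probe sets were. In that fit the difference was 1.46 for the brightest Cyp2b10 probe set (limma adjusted p = 0.340), 0.64 for Cyp2f2 (adjusted p = 0.500) and 0.03 for Cyp4v3 (adjusted p = 0.976), and the part of the Gapdh gap in these differences was not tested. Leaving out wild-type array 3, null array 1 or null array 3 gave 5, 5 or 6 members called.

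**Figure D4:**
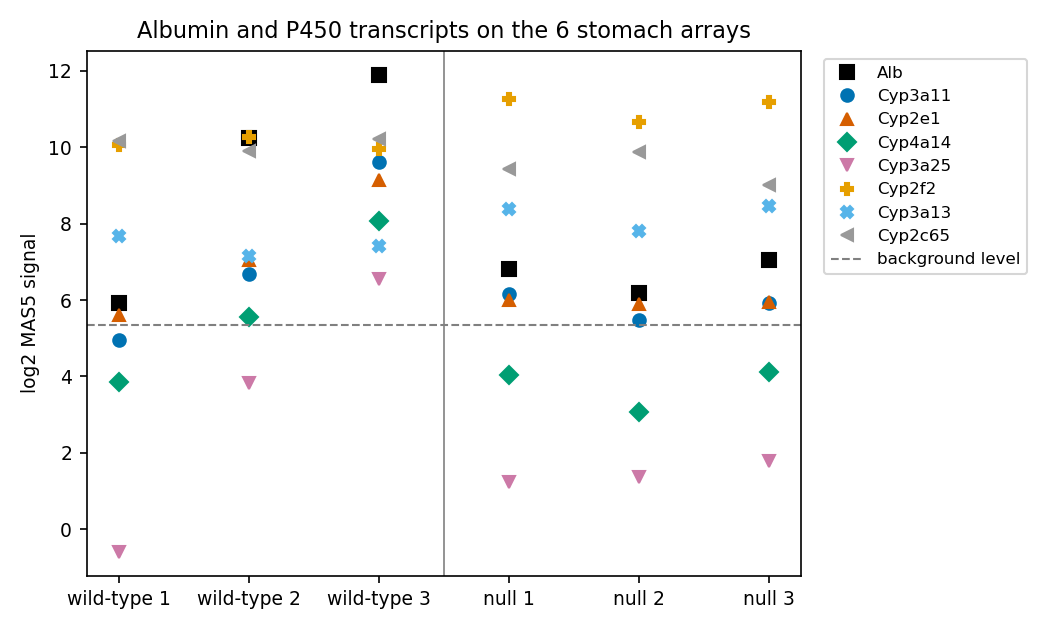
Log2 MAS5 signal (y axis) of Alb and 7 P450 transcripts on the 6 stomach arrays (x axis), with wild-type arrays left of the line and null arrays right of it; the dashed line is the background level. Alb spans 5.93 to 11.90 over the wild-type arrays, in the same order as Cyp3a11, Cyp2e1, Cyp4a14 and Cyp3a25 there, whereas Cyp2f2 stays between 9.95 and 10.26.

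Of the partner genes in stomach 5 rose and 4 fell of 26 tested, beside 11.2% and 12.2% of all probe sets. The regulators Cebpd (2.51), Ppargc1a (0.96), Nr1h4 (0.76), Cebpb (0.70) and Ahr (0.46) rose. Nr1h4 is the bile acid receptor FXR, and Ahr the aryl hydrocarbon receptor. The heme synthesis enzymes Ppox (-0.74), Alad (-0.69) and Fech (-0.47) fell, as did Cyb5b (-0.52).

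In salivary tissue 4 of 26 members passed and all were higher in null arrays, beside 3.50% of all probe sets that rose and 4.72% that fell. Cyp2b10 read 5.16, 4.48 and 4.63 in wild-type against 7.47, 7.02 and 6.10 in null tissue. All wild-type arrays were under background, so it was at least 2.82-fold higher (means 4.76 and 6.86, limma adjusted p = 0.00910), and the call held in each of the 15 alternatives that gave it a value. Of the 26 members tested, 3 including this one had a wild-type mean under background and so passed the filter only through their null arrays. The other probe sets of Cyp2b10 differed by 1.01 and 0.80 in salivary tissue. Their means were above background in null arrays alone and they lay under the filter, so these differences were not tested. Cyp2d22 read 6.24, 5.36 and 5.49 in wild-type against 7.23, 6.98 and 7.11 in null tissue on one probe set, a rise of 1.41 ± 0.25 (limma adjusted p = 0.0106). Its second probe set rose by 0.82 (limma adjusted p = 0.0244). Cyp2d22 is the mouse gene often set beside human CYP2D6.

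Cyp27a1 read 5.73, 5.36 and 5.75 in wild-type against 6.58, 6.77 and 6.62 in null salivary tissue, a rise of 1.04 ± 0.20 (limma adjusted p = 0.0151). The groups did not overlap for any of the 4, nor for 3 members that did not pass, beside 28.2% of all probe sets. Cyp2f2, which is most abundant in this tissue, differed by 0.05 (limma adjusted p = 0.873). The median difference of the 26 members was 0.27 and that of all probe sets 0.02. Leaving out wild-type array 2 left 1 member called, Cyp2b10, and the other 5 arrays left 3 or 4.

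Adipocyte transcripts varied within salivary tissue: Ucp1, the uncoupling protein of brown fat, read 5.99, 4.04 and 12.14 on wild-type and 11.31, 12.75 and 11.02 on null arrays. The mean of 5 adipocyte markers ran from 6.47 to 10.25 over the wild-type and 9.64 to 11.2 over the null arrays, and none of the 5 passed. Wild-type array 3, with a Ucp1 level within the range of the null arrays, read 4.63 for Cyp2b10 and 5.75 for Cyp27a1, under every null array. That is a single array, and the part of adipocyte transcripts in the salivary differences was not tested. Of 24 partner genes tested 4 rose and none fell, beside 3.5% and 4.72% of all probe sets. The 4 were Cebpd (2.67), Fdx1 (0.77), which passes electrons to mitochondrial P450 enzymes such as Cyp27a1, Urod (0.76) of heme synthesis, and Cebpb (0.73).

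In brain none of 22 members passed, as did none of all 13577 probe sets (0%), although 2 members and 1426 probe sets had an unadjusted limma p under 0.05. These 2 were Cyp1b1, which hydroxylates estrogens and polycyclic hydrocarbons, and Cyp2c38. Cyp1b1 read 6.98, 6.86 and 6.58 in wild-type against 8.22, 7.24 and 7.69 in null brain (difference 0.91 ± 0.23, limma adjusted p = 0.318). Cyp2c38 differed by 0.47 (limma adjusted p = 0.415). Without null array 2, 1 member was called, Cyp1b1. The genotypes did not overlap for 3 members that were higher and 1 that was lower, beside 15.7% of all probe sets. Cyp46a1 read 8.03, 7.75 and 8.21 in null brain, across the wild-type range of 7.85 to 7.95. In kidney 1 of 23 partner genes passed, Cebpd (2.43), beside 0.781% of all probe sets there, and in brain none of 22.

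Whether the knockout difference itself differed between tissues was tested with an F test over all 30 arrays. Of 60 members 13 passed, beside 15.3% of all 16690 probe sets. Cyp2f2 had the smallest p (limma F test, adjusted p = 0.000335), with differences of -2.36 in liver, 0.94 in stomach and 0.05 in salivary tissue. Cyp1a2 (adjusted p = 0.000612), Cyp2c54 (0.00116) and Cyp4v3 (0.00126) followed. In Cyp4v3 the difference was -0.64 in liver and 0.48, 0.55, 0.65 and 0.19 in kidney, stomach, salivary tissue and brain. Next came Cyp2d22 on the probe set that differed by 1.41 in salivary tissue (adjusted p = 0.00991), Cyp4a12a, Cyp2j9, an epoxygenase expressed in brain, and Cyp2c70. Cyp1a2 and Cyp4a12a were above background in wild-type liver alone, so a fall elsewhere could not be measured for them. The second Cyp2d22 probe set, with 0.82 in salivary tissue, did not pass this limma F test (adjusted p = 0.0771), nor did the second Cyp4v3 probe set (adjusted p = 0.140). Since tissues may share animals, the test was repeated with arrays of the same genotype and number as a random block, chosen after seeing the data, and 14 members passed (consensus correlation 0.0301). Leaving out the arrays of replicate 1, 2 or 3 gave 4, 8 or 2 members.

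**Figure D5:**
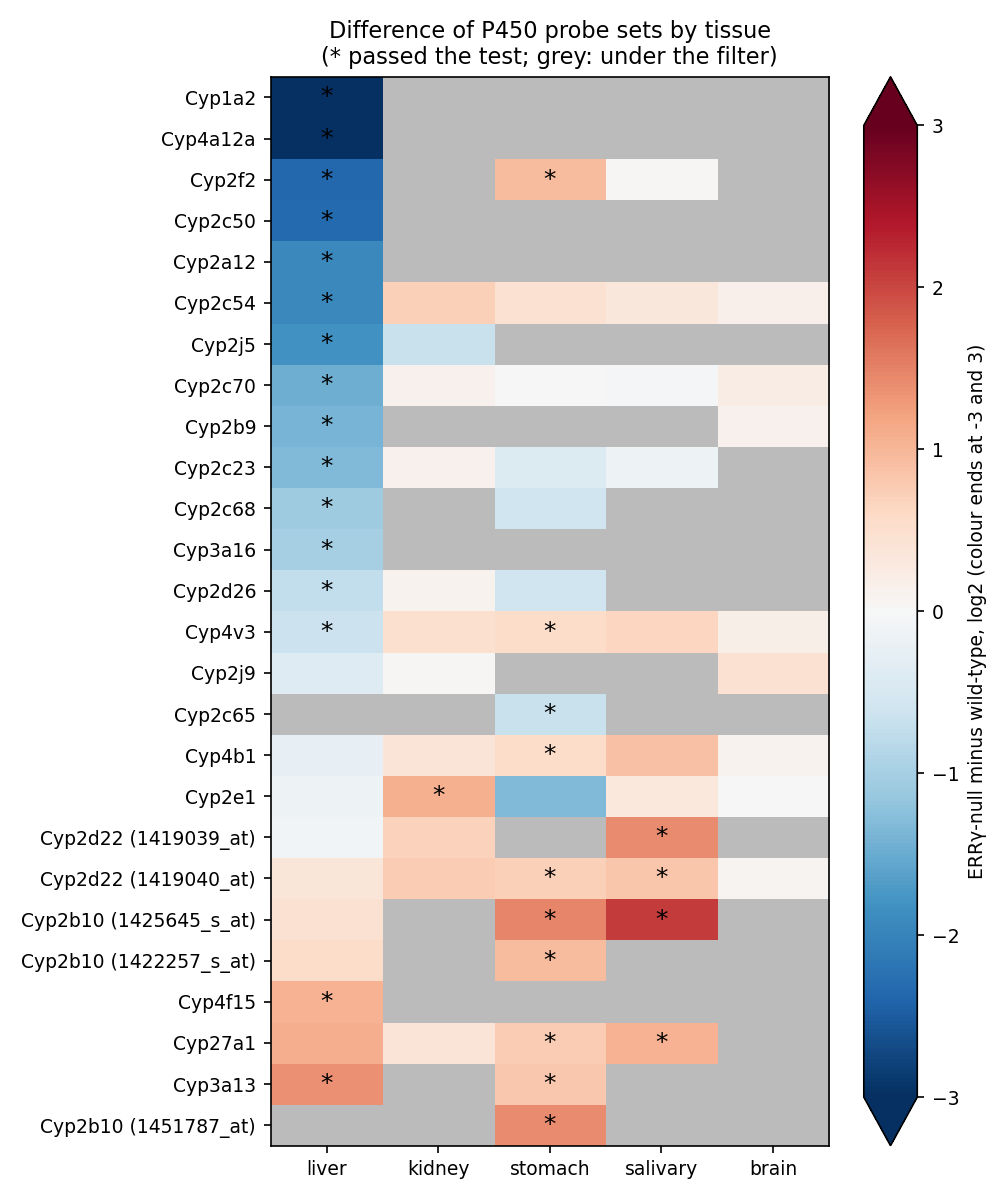
Null minus wild-type difference (colour, log2, blue lower and red higher in null arrays) of 26 P450 probe sets in the 5 tissues; stars mark limma adjusted p under 0.05 and grey cells lie under the filter on low values. The falls of Cyp1a2 to Cyp4v3 lie in the liver column, and Cyp2f2 and Cyp4v3 are blue in liver and red in stomach.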

How the data were processed

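The authors deposited log2 signals, which per the submitters' processing notes come from MAS5; no version or scaling is named there. Base 2 was settled from the values, since the trimmed means of the linear values then lay between 149.988 and 150.008. Of 22690 probe sets 64 controls were left out, and symbols came from the supplied annotation. Each tissue's 6 arrays were fitted on their own, for probe sets averaging at least the 40th percentile, with limma 3.58.1 in R 4.3.3 (mean-variance trend, Benjamini-Hochberg over all tested probe sets, adjusted p under 0.05). Tissue differences used an F test over 30 arrays. No further normalization was applied, and steps were tested on simulated data. Probe sets under background on all arrays of a group give "at least" folds against the background level or their own higher value. Members and lists were chosen with earlier results of these data known. Named members are those that passed, up to 15 per direction and tissue, else the smallest p up to 5; the top 10 per tissue pattern; the first 8 of the F test; and up to 3 per role. Same-numbered arrays of a tissue correlated between -0.24 and 0.14, so the numbers were not treated as pairs. These correlations are not those of the raw signals. Alternatives were a floor at 5, no filter or the 60th percentile, quantile or median scaling, the replicate block, a random block of genotype and number (F test), no trend, covariates (Xist, Gapdh gap, Alb, adrenal markers), all 30 arrays, an adjusted p under 0.1 and leaving out arrays. The number of arrays limits the precision.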

Additional observations from a re-analysis of the deposited data

Results flagged for a closer look

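The knockout difference of 13 members differed between tissues by the limma F test over 30 arrays, given here as adjusted p. Falls in liver with smaller or opposite differences elsewhere were those of Cyp2f2 (0.000335), Cyp1a2 (0.000612), Cyp2c54 (0.00116), Cyp4v3 (0.00126), Cyp4a12a (0.0109), Cyp2c70 (0.0129), Cyp2a12 (0.0137), Cyp2j5 (0.0176) and Cyp2b9 (0.0278). Cyp1a2, Cyp4a12a and Cyp2a12 were above background in wild-type liver alone, so a fall elsewhere could not be measured for them. Cyp1a2 differed by 1.09 in salivary tissue, where it lay under background in both genotypes. Cyp2d22 (0.00991) was higher by 1.41 in salivary tissue and lower by a difference of -1.11 in brain, where it was not tested on its own because it lay under the filter. Cyp2j9 (0.0114) differed by 1.31 in salivary tissue, where all its arrays were under background, and by -0.38 in liver. Cyp3a13 (0.0325) was higher in liver and stomach and differed by -0.06 in salivary tissue. On the probe set brightest in stomach, Cyp2b10 (0.0423) was higher in stomach and salivary tissue and differed by 0.45 in liver. Its other probe sets did not pass the limma F test (adjusted p = 0.115 and 0.530), and the one at 0.115 differed by 2.13 in liver. The second probe sets of Cyp4v3 (0.140) and Cyp2j5 (0.594) did not pass it either.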

How the results depend on the processing

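In liver 16 members were called, and 9 without a filter, 10 without the mean-variance trend and 0 with the Gapdh gap as a covariate; leaving out an array gave 5 to 23. In kidney 1 was called, and 5 at adjusted p under 0.1, 2 with the Xist covariate and 0 without a filter, without the trend, with the Gapdh gap or with the adrenal markers; leaving out an array gave 0 to 2. In stomach 10 were called, and 0 with the Gapdh gap, 3 with Alb, 0 without the arrays of high Alb and 5 in the fit of all 30 arrays; leaving out an array gave 5 to 9. In salivary tissue 4 were called, and 1 with the filter at the 60th percentile; leaving out an array gave 1 to 4, and in brain 0 to 1. The F test called 25 members in place of 13 with values floored at 5, and 2 to 8 with a replicate left out. Partner genes passed 22 times, and 3 times with the Gapdh gap, an alternative chosen after seeing the data. With the background level at the 60th percentile, also chosen afterwards, 62 wild-type results were above it in place of 160.

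With the replicate number as a block, 15 members were called in liver, 2 in kidney (Cyp2d22 besides Cyp2e1), 9 in stomach, 2 in salivary tissue and 0 in brain. The numbers do not pair the samples, and in no tissue did every array correlate best with its own number.

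Signs turned for 6 members, none of which had passed. Cyp2e1 in stomach (-1.32) became 0.088 with Alb and 0.33 without the arrays of high Alb. Cyp21a1 in salivary tissue (-0.12) became 0.25 with the Gapdh gap. With an array left out, differences ran in salivary tissue from -0.40 to 0.17 for Cyp21a1, from -0.23 to 0.0067 for Cyp1b1 and from -0.32 to 0.01 for Cyp2c23, and in brain from -0.56 to 0.072 for Cyp3a11 and from -0.21 to 0.04 for Cyp2s1. The causes were not tested.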
